A study of Mus musculus with 5 samples.

Results

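Matrix proteins and matrix-remodelling enzymes of fibroblasts were followed as 10 genes of a table of 28642 genes and chosen by symbol: the proteoglycans Dcn and Bgn, the glycoproteins Sparc, Fn1, Tgfbi and Mgp, the lysyl oxidases Lox and Loxl1, the metalloproteinase Mmp3 and the metalloproteinase inhibitor Timp3. All 10 were found in the table and all 10 passed the filter on low counts. RNA came from mouse embryonic stem cells of the line ES-D3 that carried a lentiviral short hairpin and had been selected with puromycin. Of the 5 libraries, 2 carried hairpins against Trim28 (shTrim28), 2 carried hairpins against Wtx (shWtx), and 1 carried a hairpin against GFP (shGFP) and was the only control. The cells had grown with leukemia inhibitory factor on irradiated feeder cells, which were depleted by replating before the RNA was taken, so every group had been in contact with feeders. Each library stands for 1 hairpin, and the labels do not say whether the cultures were otherwise separate, so p-values measure the spread between hairpins. The hairpins against Wtx share 20 of 21 bases, so that pair gives the spread of nearly the same hairpin.

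The hairpins are shown because they define the groups and because those against Wtx are near copies of each other. Those against Trim28 match exons 12 and 16 of 17 of Trim28 on chromosome 7 (GRCm38, 13029440 to 13029460 and 13030559 to 13030579). Those against Wtx, whose current symbol is Amer1 and whose symbol in the table is Fam123b, match exon 2 of 2 of that gene, which lies on the minus strand, at chromosome X positions 95426292 to 95426312 and 95426291 to 95426311. Capitals mark the 20 of 21 bases that the hairpins against Wtx share.
shTrim28 replicate 1: ccaccagtcttcaaggtcttt
shTrim28 replicate 2: ccgcatgttcaaacagttcaa
shWtx replicate 1: gCCAGACATGCAAGAAGCAAA
shWtx replicate 2: CCAGACATGCAAGAAGCAAAt

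The extracellular matrix is a secreted network of collagens, glycoproteins and proteoglycans that connective tissue cells lay down around themselves. Small leucine-rich proteoglycans such as decorin and biglycan bind collagen fibrils, fibronectin links matrix to integrins, lysyl oxidases cross-link collagen and elastin, and metalloproteinases with their inhibitors set how fast the network is degraded. Fibroblasts, the usual feeders of embryonic stem cells, express most of these genes strongly, and embryonic stem cells leaving the pluripotent state can also begin to express matrix genes.

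Gene totals ran from 280614 estimated counts in shTrim28 replicate 1 to 1901563 in shTrim28 replicate 2, with 763130 and 377794 in the libraries labelled shWtx and 586408 in shGFP. Trim28 stood at 65.3 and 48.3 normalised counts per 1000000 (CPM) in shTrim28, against 783 in shGFP (log2 fold change −3.88, SE 0.29, edgeR adjusted p = 2.78e-09). It was also lower in the libraries labelled shWtx than in shGFP, at 399.5 and 396.5 CPM (−0.98, SE 0.26, adjusted p = 0.0108). Fam123b stood at 26.3 and 16.5 CPM in the libraries labelled shWtx, against 14.3 in shGFP, and the difference did not pass (log2 fold change 0.65, edgeR adjusted p = 0.508). These values rest on 19, 6 and 8 counts, and their counting intervals overlap, so a moderate change of Fam123b could be missed. Since the target does not check the label of these libraries, they are called the libraries labelled shWtx. All 10 pluripotency markers were counted in every library, at a summed 1771 and 1807 CPM in shTrim28, 2893 and 3202 CPM in the libraries labelled shWtx and 6182 CPM in shGFP. The 1335 genes of chemoreceptors, which serve smell and taste, summed to 2315 and 1517 CPM of the gene total in shTrim28, 4462 and 3843 in the libraries labelled shWtx and 339 in shGFP.

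In all, the 10 matrix genes summed to 2188 and 2453 CPM in shTrim28, 1075 and 1167 CPM in the libraries labelled shWtx and 1297 CPM in shGFP. The shTrim28 libraries were the highest and the libraries labelled shWtx the lowest, without overlap between groups. In bulk RNA fewer cells of a type and less RNA per cell cannot be told apart. The summed level of 24 fibroblast and feeder markers was also highest in shTrim28, and its part in these levels was not tested. The gene by gene picture was not uniform. Relative to shGFP, Lox, Timp3 and Bgn rose in shTrim28, while Loxl1, Mgp, Tgfbi, Mmp3 and Dcn fell in the libraries labelled shWtx. Fn1 was the 1 gene that passed in none of the 3 edgeR comparisons.

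**Figure D1:**
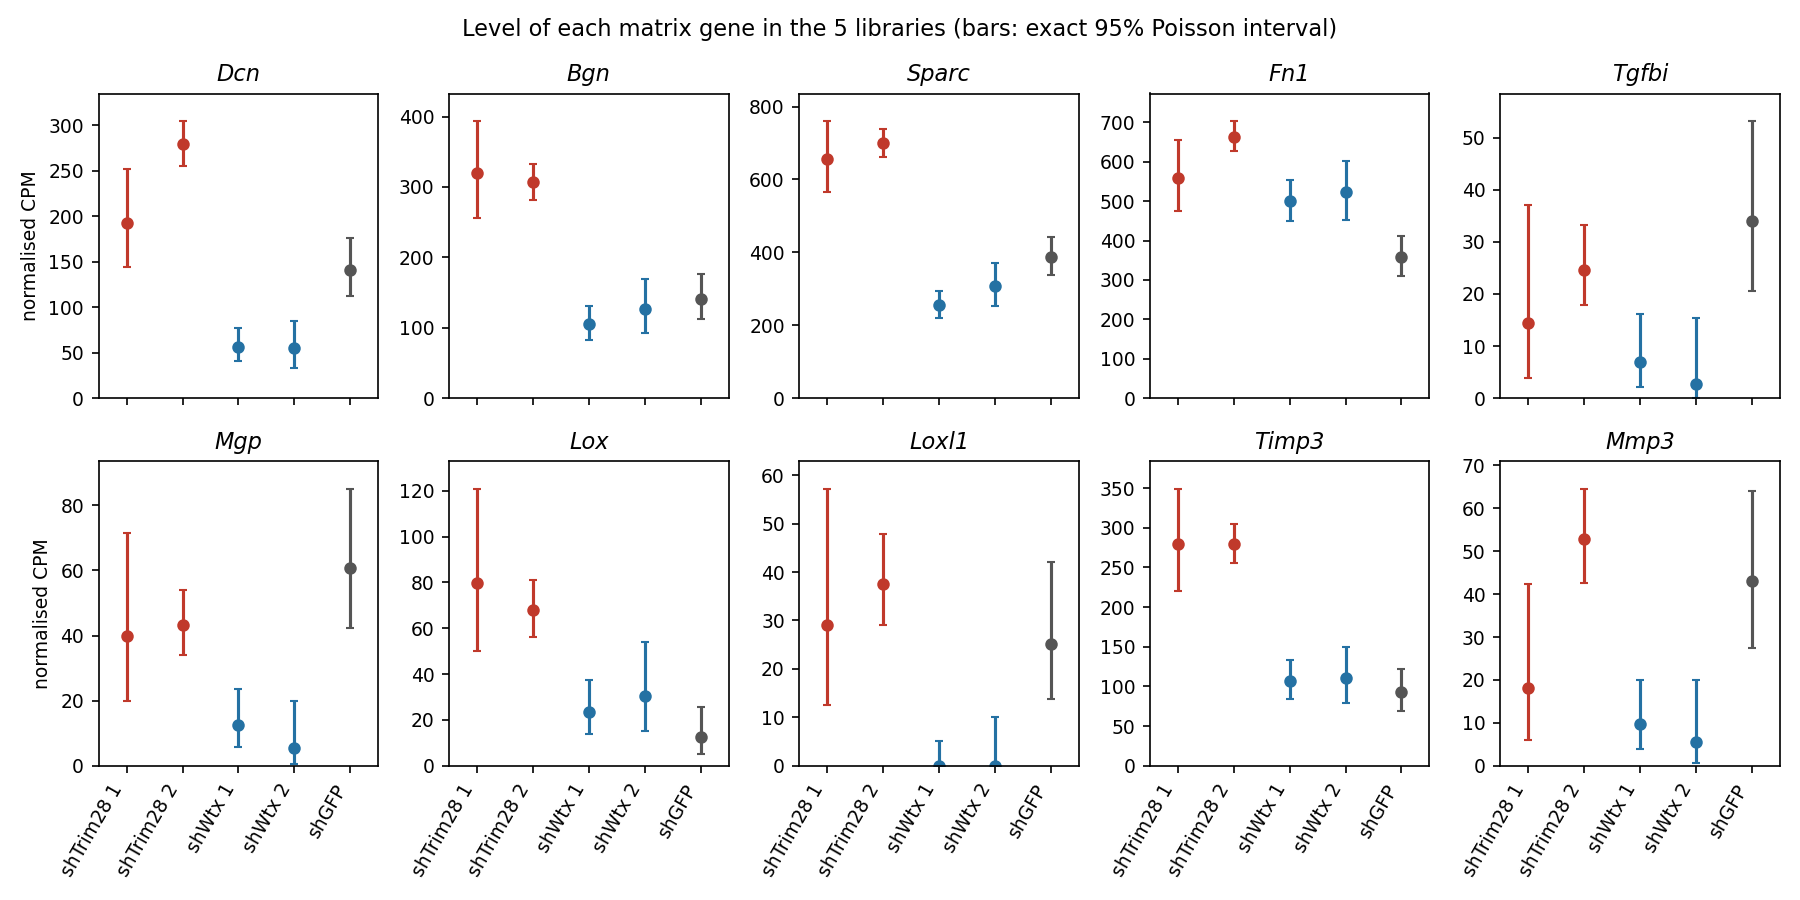
Normalised CPM (linear axes from 0, scaled per gene) of the 10 matrix genes in the shTrim28 libraries (red), the libraries labelled shWtx (blue) and shGFP (grey). Points are libraries and bars are exact 95% Poisson intervals for counting error. Bgn, Timp3 and Lox stand highest in both red points, and Loxl1 is at 0 counts in both blue points.

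Levels were divided by transcript length in kilobases, which lets genes be compared only if reads scale with length, and this was not tested. On this scale Sparc was the most abundant of the 10 in every library. It had 286 and 304 CPM per kilobase in shTrim28, 111 and 134 in the libraries labelled shWtx and 168 in shGFP. Bgn and Dcn followed in shTrim28, at 132 and 127 for Bgn and 109 and 159 for Dcn, and their order differed between the hairpins. In the libraries labelled shWtx Fn1 was second, at 60.2 and 62.9, above Bgn at 43.4 and 52.4. Before division by length Fn1 stood first there, at 500 and 523 CPM, against 254 and 308 CPM for Sparc. In shGFP the second place was held by Mgp, at 98.7 CPM per kilobase, followed by Dcn at 80.5, Bgn at 58.5 and Fn1 at 43.1. The least abundant was Tgfbi in shTrim28, at 5.35 and 9.10 CPM per kilobase, Loxl1 at 0 in the libraries labelled shWtx, and Lox in shGFP, at 2.64. Transcript lengths came from GENCODE M21 and ran from 617 bases for Mgp to 8315 for Fn1. In shTrim28 Mmp3, at 10.1 and 29.3 CPM per kilobase, could not be placed in order against Lox, at 16.8 and 14.3, or Loxl1, at 8.80 and 11.4.

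The first comparison set the hairpins against Trim28 beside the control hairpin. Of the 10 genes 3 rose and 0 fell in shTrim28 relative to shGFP, where 4.27% of 10878 genes tested rose and 2.26% fell. Both shTrim28 libraries stood above shGFP for 7 of the 10, as they did for 45.1% of all genes, and below it for 2, as they did for 30.7%. The median log2 fold change was 0.78 over the 10 and 0.16 over all genes tested.

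Lox, which oxidises lysines in collagen and elastin as the first step of cross-linking, had the largest difference. It stood at 79.8 and 67.9 CPM in shTrim28, against 12.5 CPM in shGFP, where it was counted 7 times. Both shTrim28 libraries lay above the upper counting limit of shGFP, which was 25.8 CPM. The log2 fold change was 2.50 (SE 0.51, edgeR adjusted p = 0.00227), which is a 5.65-fold higher level. Loxl1, a relative of Lox needed for elastic fibres, stood at 29.0 and 37.6 CPM in shTrim28, against 25.1 in shGFP. The counting intervals of all 3 libraries overlapped, and it did not pass (0.49, SE 0.52, adjusted p = 0.656).

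Timp3 encodes an inhibitor of metalloproteinases that stays bound to the matrix. It stood at 279 and 280 CPM in shTrim28, against 93.1 CPM in shGFP, so that the hairpins gave nearly the same level, 3-fold that of shGFP (log2 fold change 1.58, SE 0.32, edgeR adjusted p = 0.00198). Mmp3, stromelysin, cleaves proteoglycans, fibronectin and other matrix proteins. It stood at 18.1 and 52.8 CPM in shTrim28, on either side of the 43.0 CPM in shGFP. The first of these values rests on 5 counts, and the mean difference was close to 0 (adjusted p = 1).

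Bgn, a proteoglycan of the collagen-rich matrix, stood at 319 and 306 CPM in shTrim28, against 141 CPM in shGFP. It was 2.20-fold higher (log2 fold change 1.14, SE 0.30, edgeR adjusted p = 0.0214). Dcn, a close relative that binds collagen fibrils, stood at 192 and 279 CPM in shTrim28, against 141 CPM in shGFP. Both libraries were higher, with a wider gap between hairpins than for Bgn, and Dcn did not pass (0.79, SE 0.31, adjusted p = 0.146).

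Sparc, a collagen-binding glycoprotein, stood at 657 and 699 CPM in shTrim28, against 387 CPM in shGFP. Fn1, fibronectin, stood at 559 and 664 CPM in shTrim28, against 358 CPM in shGFP. Both genes were higher in both libraries without passing, Sparc with a log2 fold change of 0.81 (SE 0.27, edgeR adjusted p = 0.0778) and Fn1 with 0.78 (SE 0.28, adjusted p = 0.0914). In the limma-voom fit with quantile normalization both passed, Sparc with adjusted p = 0.0114 and Fn1 with adjusted p = 0.0122.

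Mgp and Tgfbi stood on the other side. Mgp, which inhibits mineralisation of matrix, stood at 39.9 and 43.2 CPM in shTrim28, against 60.9 CPM in shGFP. Tgfbi, a secreted adhesion protein induced by TGF-beta, stood at 14.5 and 24.7 CPM in shTrim28, against 34.0 CPM in shGFP. The shTrim28 libraries were lower for both genes and neither passed (Mgp −0.52, adjusted p = 0.51; Tgfbi −0.61, adjusted p = 0.574). The counts of Tgfbi were few, 4 and 44 in shTrim28 and 19 in shGFP.

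The 3 calls depended on the libraries in the fit. Without shTrim28 replicate 1, 0 genes passed in edgeR, with 1675 under an unadjusted p of 0.05, and Lox, Timp3 and Bgn each had adjusted p = 0.328, with log2 fold changes of 2.42, 1.58 and 1.11. Without the library labelled shWtx replicate 1, Bgn did not pass (adjusted p = 0.0623), and over all genes 394 were called in place of 710. Bgn also did not pass with the DESeq2 Wald test (adjusted p = 0.077) or in edgeR without a filter on low counts (adjusted p = 0.203). The Wald test gave an adjusted p to 5 of the matrix genes and called 1, Timp3. Lox got no adjusted p in that test.

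The second comparison set the libraries labelled shWtx beside the same control. Of the 10 genes 0 rose and 5 fell in the libraries labelled shWtx relative to shGFP, where 10.9% of all genes rose and 4.94% fell. Both libraries stood below shGFP for 7 of the 10, as they did for 40.3% of all genes, and above it for 3, as they did for 43.5%. The median log2 fold change was −0.90 over the 10 and 0.06 over all genes tested. Between 100 and 400 CPM, where Dcn, Bgn and Timp3 lie, the median of all genes was −0.42.

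Loxl1 was at 0 counts in both libraries labelled shWtx, against 14 counts and 25.1 CPM in shGFP. Against a floor of 3 counts over the group it was at least 9.08-fold lower (edgeR adjusted p = 0.000464). Loxl1 passed the filter on low counts here only with the shTrim28 libraries in the fit. With only the groups compared it was not tested, so its call rests on that choice. Lox, in contrast, stood at 23.5 and 30.3 CPM in the libraries labelled shWtx, against 12.5 CPM in shGFP, and did not pass (log2 fold change 1.05, SE 0.58, adjusted p = 0.224).

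Mgp stood at 12.4 and 5.51 CPM in the libraries labelled shWtx, against 60.9 CPM in shGFP (log2 fold change −2.59, SE 0.51, edgeR adjusted p = 0.000691). Mmp3 stood at 9.68 and 5.51 CPM, against 43.0 CPM in shGFP (−2.37, SE 0.61, adjusted p = 0.00908). Tgfbi stood at 6.91 and 2.75 CPM, against 34.0 CPM in shGFP (−2.61, SE 0.70, adjusted p = 0.0116). For each of these 3 genes the upper counting limit of both libraries labelled shWtx lay below the lower limit of shGFP, although the values rest on 1 to 9 counts per library. Spread over transcript length, the chemoreceptor level amounts to 2.14 and 0.914 of the 5.33 and 1.04 estimated counts of Tgfbi in these libraries, and its part in the result was not tested. With that level subtracted from all genes, the same 5 genes fell.

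Dcn stood at 56.7 and 55.1 CPM in the libraries labelled shWtx, against 141 CPM in shGFP. These values come from 41, 20 and 79 counts, and the log2 fold change was −1.33 (SE 0.34, edgeR adjusted p = 0.00826). Bgn, with the same level as Dcn in shGFP, stood at 105 and 127 CPM in the libraries labelled shWtx, against 141 CPM in shGFP, and did not pass (−0.31, 95% interval −0.91 to 0.30, adjusted p = 0.527).

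Sparc stood at 254 and 308 CPM in the libraries labelled shWtx, against 387 CPM in shGFP (−0.47, SE 0.27, edgeR adjusted p = 0.247). Fn1 stood at 500 and 523 CPM, against 358 CPM in shGFP (0.51, SE 0.27, adjusted p = 0.207). Timp3 stood at 106 and 110 CPM, against 93.1 CPM in shGFP (0.21, 95% interval −0.43 to 0.85, adjusted p = 0.685). None of these 3 passed in the edgeR fit, and Fn1 passed on the higher side with limma-voom and quantile normalization (0.75, adjusted p = 0.0368). In that fit Mmp3 did not pass (adjusted p = 0.0853).

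Without shTrim28 replicate 1, a library of neither group, 0 genes passed in edgeR, with 2804 under an unadjusted p of 0.05, and the 5 matrix genes each had adjusted p = 0.177. Without the library labelled shWtx replicate 1, Loxl1 and Mgp passed, and Dcn, Tgfbi and Mmp3 had adjusted p of 0.0917, 0.0851 and 0.0942. Without the library labelled shWtx replicate 2, Tgfbi did not pass (adjusted p = 0.05). The DESeq2 Wald test called 0 of the 8 genes to which it gave an adjusted p, with Mgp at 0.0524, Dcn at 0.067 and 5 of the 10 genes at an unadjusted p under 0.05.

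**Figure D2:**
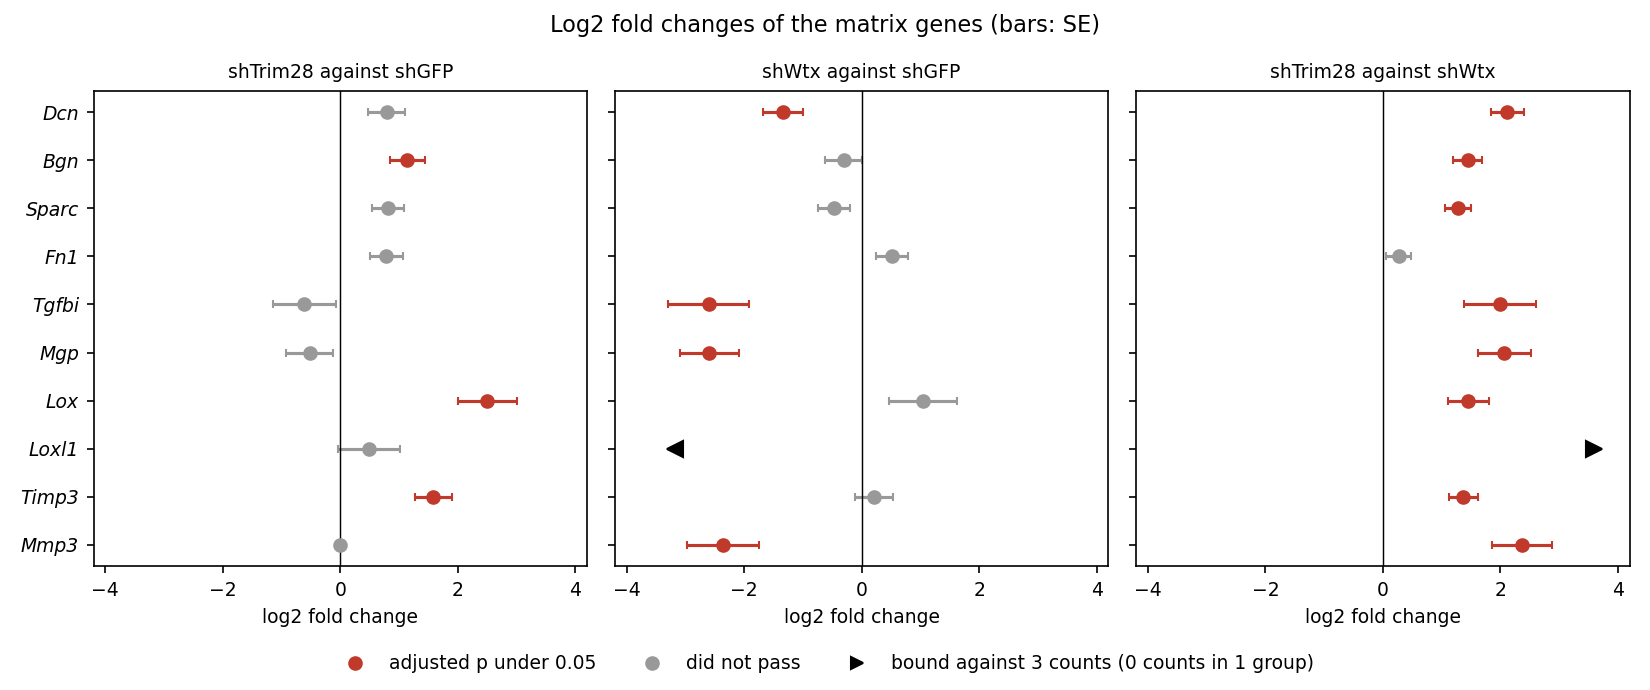
Log2 fold change (x axis) of each matrix gene (rows) in the 3 comparisons, with the first group named over the second. Bars are SE, red points passed an adjusted p of 0.05, grey points did not, and triangles are bounds for Loxl1, which was at 0 counts in the libraries labelled shWtx. In the right panel 9 of 10 genes passed on the higher side, and Fn1 did not.

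Set against each other, shTrim28 and the libraries labelled shWtx differed for nearly all of the 10 genes. Of these 9 rose and 0 fell in shTrim28 relative to the libraries labelled shWtx, where 5.45% of all genes rose and 9.83% fell. The groups did not overlap for any of the 10 genes, with shTrim28 above in each, while over all genes 55.6% did not overlap in either direction. The median log2 fold change was 1.72 over the 10 and 0.02 over all genes tested. This comparison does not use shGFP for its means, and shares its libraries with both comparisons above.

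Dcn had the lowest p of the 10. It averaged 236 ± 61.2 CPM in shTrim28 and 55.9 ± 1.14 CPM in the libraries labelled shWtx (SD, n = 2 each), a 4.34-fold difference (log2 fold change 2.12, SE 0.28, edgeR adjusted p = 2.4e-05). Counting intervals of Dcn in the libraries labelled shWtx, 40.67 to 76.89 and 33.64 to 85.05 CPM, were far wider than that SD. Loxl1 averaged 33.3 ± 6.06 CPM in shTrim28 and was at 0 counts in the libraries labelled shWtx, which makes it at least 12.1-fold higher (adjusted p = 5.71e-05). Bgn averaged 313 ± 9.13 CPM in shTrim28 and 116 ± 15.3 CPM in the libraries labelled shWtx (1.45, SE 0.25, adjusted p = 0.000258).

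Among the enzymes and their inhibitor, Timp3 averaged 279 ± 0.044 CPM in shTrim28 and 108 ± 2.61 CPM in the libraries labelled shWtx (1.37 on the log2 scale, SE 0.24, edgeR adjusted p = 0.000412). The SD in shTrim28 is far below counting error, as the 95% counting interval of replicate 1 ran from 220.5 to 349.2 CPM. Lox averaged 73.9 ± 8.43 CPM in shTrim28 and 26.9 ± 4.80 CPM in the libraries labelled shWtx (1.45, SE 0.35, adjusted p = 0.00486). Mmp3 averaged 35.5 ± 24.5 CPM in shTrim28 and 7.59 ± 2.95 CPM in the libraries labelled shWtx (2.37, SE 0.51, adjusted p = 0.00229), with the wide spread of shTrim28 described above. Sparc averaged 678 ± 29.6 CPM in shTrim28 and 281 ± 38.2 CPM in the libraries labelled shWtx (1.28, SE 0.22, adjusted p = 0.00036).

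Mgp and Tgfbi, which were lower in shTrim28 than in shGFP without passing, rose in shTrim28 relative to the libraries labelled shWtx (Mgp 2.07, adjusted p = 0.00245, and Tgfbi 1.99, adjusted p = 0.029 in edgeR). Tgfbi rests on 4 and 44 counts in shTrim28 and on 5 and 1 in the libraries labelled shWtx. It passed the filter on low counts only with shGFP in the fit, and was not tested with only the groups compared. Fn1 averaged 611 ± 74.3 CPM in shTrim28 and 512 ± 16.1 CPM in the libraries labelled shWtx, and the difference of 0.27 on the log2 scale did not pass (95% interval −0.15 to 0.69, adjusted p = 0.407).

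Without shTrim28 replicate 1 again 0 genes passed in edgeR, with 3113 under an unadjusted p of 0.05 and adjusted p of 0.157 or 0.158 for the 9 genes. Without shTrim28 replicate 2, 6 genes passed, and Tgfbi (log2 fold change 1.33), Mgp (1.92) and Mmp3 (1.07) did not. Without the library labelled shWtx replicate 1, Dcn and Loxl1 passed, and the adjusted p of the others that had passed ran from 0.0503 for Timp3 to 0.226 for Lox. Without the library labelled shWtx replicate 2, Tgfbi did not pass (adjusted p = 0.166). The DESeq2 Wald test gave an adjusted p to 6 of the matrix genes and called 4, namely Dcn, Bgn, Timp3 and Sparc. In that test Lox did not pass (adjusted p = 0.187), and Loxl1, Mgp, Mmp3 and Tgfbi got no adjusted p.

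**Figure D3:**
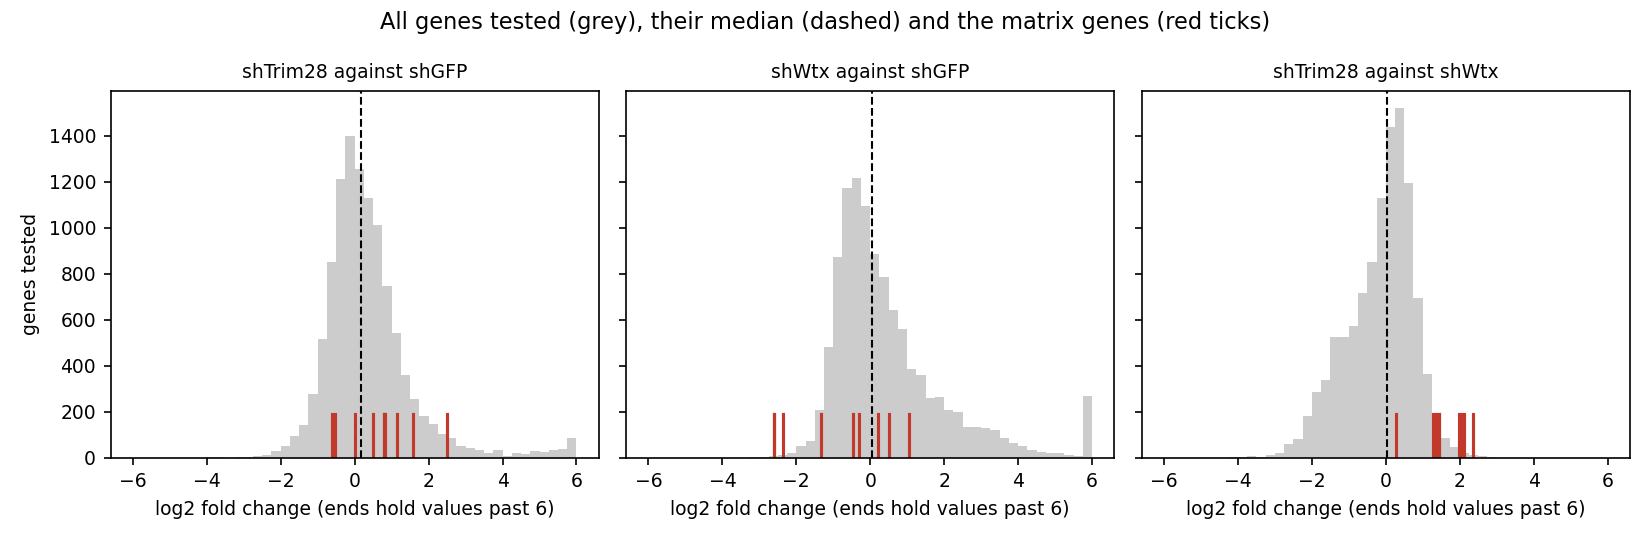
Number of genes tested (y axis) by log2 fold change (x axis) in the 3 comparisons, with values past 6 held in the end bars. The dashed line is the median of all 10878 genes and red ticks are the matrix genes, without Loxl1 where it was at 0 counts. In the right panel the ticks run from 0.27 to 2.37, to the right of a median of 0.02.

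Promoter sequences are shown for Bgn and Timp3, which rose in shTrim28, and for Tgfbi and Mmp3, which fell in the libraries labelled shWtx, so that genes of both patterns can be read side by side. Windows from the RefSeq table (GRCm38.p6) were used for 5 of the 10 genes, the fifth being Sparc. Whether that table holds windows of the others is not reported here. Each sequence holds the 250 bases before the annotated start, 5′ to 3′ on the gene's strand: Bgn chrX:73483351-73483600 (plus strand), Timp3 chr10:86300162-86300411 (plus), Tgfbi chr13:56609336-56609585 (plus) and Mmp3 chr9:7445572-7445821 (plus). Capitals mark matches, on either strand, to the TATA box letters TATAAA, the GC box letters GGGCGG and the AP-1 letters TGANTCA.
Bgn: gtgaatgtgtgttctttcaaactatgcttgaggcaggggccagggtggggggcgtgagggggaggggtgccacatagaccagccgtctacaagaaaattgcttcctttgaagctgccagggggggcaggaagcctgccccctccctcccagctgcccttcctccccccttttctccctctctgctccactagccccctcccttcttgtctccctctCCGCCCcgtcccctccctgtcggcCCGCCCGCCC
Timp3: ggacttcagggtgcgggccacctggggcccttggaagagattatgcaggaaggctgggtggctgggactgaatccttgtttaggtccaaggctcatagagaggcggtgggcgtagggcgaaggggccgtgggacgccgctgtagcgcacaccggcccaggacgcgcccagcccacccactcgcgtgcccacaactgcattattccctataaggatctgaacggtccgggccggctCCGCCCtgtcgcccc
Tgfbi: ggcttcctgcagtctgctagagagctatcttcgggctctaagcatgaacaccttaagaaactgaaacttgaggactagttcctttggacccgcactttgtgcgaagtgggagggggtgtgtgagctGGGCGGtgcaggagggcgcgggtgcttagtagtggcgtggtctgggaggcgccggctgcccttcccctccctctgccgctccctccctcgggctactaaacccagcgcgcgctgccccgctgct
Mmp3: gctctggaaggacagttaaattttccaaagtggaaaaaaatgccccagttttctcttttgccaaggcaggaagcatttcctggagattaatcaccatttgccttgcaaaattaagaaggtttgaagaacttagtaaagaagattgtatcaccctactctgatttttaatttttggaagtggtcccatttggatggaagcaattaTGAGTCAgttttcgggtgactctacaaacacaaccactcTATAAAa

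The GC box letters occurred 3 times in the window of Bgn, with overlapping copies at its end, and once each in those of Timp3 and Tgfbi, against 32.7% of all 32851 RefSeq windows with at least 1 match. The window of Mmp3 held 1 match to TATAAA and 1 to TGANTCA, which 12.4% and 6.7% of all windows hold. The windows of Bgn, Timp3 and Tgfbi had 64.4%, 65.6% and 62.4% G and C, that of Mmp3 37.6%, and the median of all windows was 52.4%. A match describes letters in the window and not a bound site.

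Other genes of the matrix were counted from lists of related genes, whose counts stand beside the 4.27% of all genes that rose and the 2.26% that fell in shTrim28 relative to shGFP. In shTrim28 relative to shGFP, 7 of 25 tested glycoproteins of fibrillar matrix rose and 0 fell, with a median log2 fold change of 0.97. Spp1, the most abundant of them, was lower without passing, at 1096 and 1833 CPM in shTrim28, against 2600 CPM in shGFP. Fbln5, an elastic fibre protein, stood at 109 and 126 CPM in shTrim28, against 25.1 in shGFP (2.25, edgeR adjusted p = 0.000887). Thbs1 (thrombospondin, 2.57), Efemp1 (1.57) and Cthrc1, at 0 in shGFP and at least 4.17-fold higher, also rose. Of 23 tested metalloproteinases and inhibitors 4 rose and 0 fell, with a median of 0.56. Among them were Mmp12 (macrophage elastase, 3.89), Timp2 (1.13) and Mmp14, a membrane-bound collagenase (1.002). Timp2, another inhibitor, stood at 1089 and 1044 CPM in shTrim28, against 485 CPM in shGFP.

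Among the remaining lists in shTrim28 relative to shGFP, 2 of 11 collagens outside basement membrane rose (Col1a2 1.86 and Col5a2 2.27, list median 1.26), as did 1 of 18 basement membrane genes (the linker nidogen, Nid1, 1.51, list median 0.10), a share near that of all genes. Of 16 matrix receptors 3 rose, namely the integrin chains Itga4 (3.999) and Itgb1 (1.15) and the hyaluronan receptor Cd44 (1.73). Of 17 genes of TGF-beta signalling and its early targets 4 rose, namely Id3 (1.85), Id1 (1.58), the receptor Tgfbr1 (1.77) and Cyr61 (1.95). Contractile genes had 4 of 11 higher, with Tagln at 2.71, Tpm1 at 2.04 and Cald1 at 1.30, and Acta2, counted once in shGFP, higher by a ratio of 30.9 (95% counting interval 5.44 to 1230). No gene of these lists fell. Of 3 tested small leucine-rich proteoglycans besides Dcn and Bgn, Omd fell (−0.93, edgeR adjusted p = 0.0266), and Loxl3, the 1 other lysyl oxidase tested, did not pass.

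In the libraries labelled shWtx relative to shGFP, where 10.9% of all genes rose and 4.94% fell, 0 of 25 glycoproteins rose and 1 fell, Spp1 (osteopontin), which stood at 700 and 845 CPM, against 2600 CPM in shGFP (−1.76, edgeR adjusted p = 5.17e-05). Of metalloproteinases and inhibitors 4 rose and 1 fell: among these Mmp12 (5.04) was higher, Mmp16 was at 0 in shGFP and at least 4.11-fold higher, Adamts12 was higher by a ratio of 7.45 (1.89 to 64.4), and the protease inhibitor Serpine2 was lower (−1.40). Of 11 collagens 1 rose, Col27a1, by a ratio of 18.0 over 1 count in shGFP (3.02 to 730), and of 18 basement membrane genes 1, Lamb3, by a ratio of 15.4 (2.56 to 629). Of 16 receptors 2 rose, Itga4 (4.86) and Itgb4 (a ratio of 19.0, 3.21 to 771). Of the TGF-beta list 2 of 17 rose, Tgfbr1 (2.31) and Cyr61 (1.78), and of contractile genes 2 of 11, Tagln (1.75) and Acta2 (a ratio of 37.5, 6.53 to 1500). Ecm2 was the 1 of 3 tested small leucine-rich proteoglycans that rose (1.42). The counts of receptors, TGF-beta genes, collagens and basement membrane genes were near or below the share of all genes. The chemoreceptor level was 1.09 and 0.927 CPM per kilobase in the libraries labelled shWtx, against 0.0828 in shGFP. With it subtracted by transcript length, 597 genes were called higher over the whole table, against 1184 in the main fit. Its part in the rises of genes with few counts was not tested.

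In shTrim28 relative to the libraries labelled shWtx, where 5.45% of all genes rose and 9.83% fell, 10 of 25 glycoproteins rose and 2 fell, led by Efemp1 (2.13), Fbln5 (1.76) and the procollagen protease enhancer Pcolce (1.45). Those that fell were Ltbp4 (−1.11) and Matn2 (−1.03). Of metalloproteinases and inhibitors 6 of 23 rose and 1 fell: Timp2 (1.40), Mmp2 (1.60) and Mmp14 (1.17) were among those higher and Mmp12 (−1.15) was lower. Of 11 collagens 4 rose, Col1a2 (1.45), Col3a1 (2.02), Col5a2 (1.45) and Col1a1 (0.99), and Col27a1 fell (−2.04). Of 18 basement membrane genes 1 rose, Nid1 (0.85). Of 16 receptors Sdc2 (1.59), Itgb1 (0.94) and Cd44 (0.88) rose and Itga4 fell (−0.86). Of the TGF-beta list Id3 (1.76), Id1 (1.18) and Smad4 (0.96) rose, and of contractile genes Cald1 (1.48), Tpm1 (1.34) and Tagln (0.96). Ecm2 fell (−2.02). The medians were 0.37 for glycoproteins, 0.07 for metalloproteinases and inhibitors, 0.96 for collagens and −0.37 for basement membrane, beside 1.72 for the 10 genes.

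**Figure D4:**
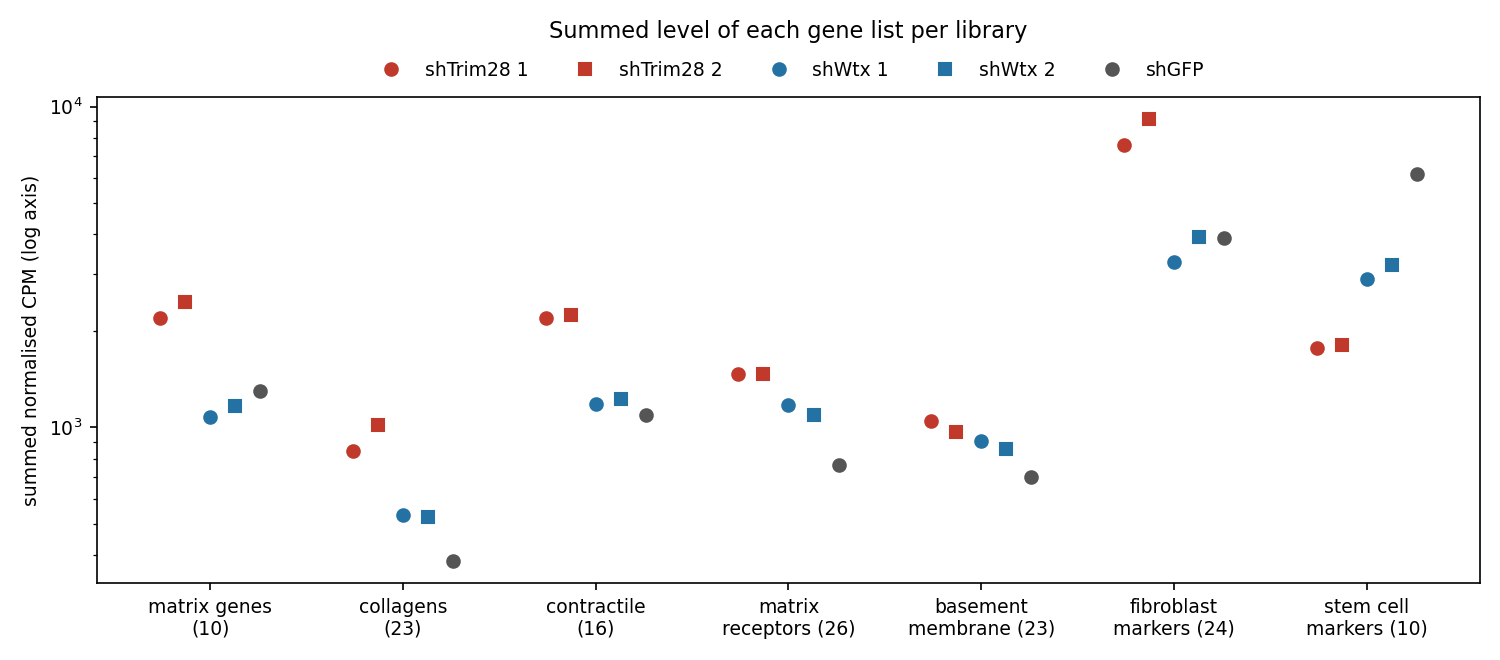
Summed normalised CPM (log axis) of 7 gene lists per library, with the number of genes in brackets. Colours are groups and symbols are replicates. Of the 7 lists drawn, all except the stem cell markers stand highest in both shTrim28 libraries (red). The stem cell markers stand highest in shGFP (grey). Among lists not drawn, glycoproteins of fibrillar matrix summed to 2583 and 3347 CPM in shTrim28, against 3471 CPM in shGFP. Other small leucine-rich proteoglycans summed to 1183 and 1141 CPM in shTrim28, against 2131 CPM in shGFP. Metalloproteinases and inhibitors and the TGF-beta list, also not drawn, stood highest in both shTrim28 libraries.

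Markers of fibroblasts and feeder cells outside the matrix were counted beside these genes. Their 24 genes summed to 7594 and 9175 CPM in shTrim28, 3269 and 3935 CPM in the libraries labelled shWtx and 3886 CPM in shGFP. At least 23 of the 24 were counted in every library, and the zeros were Meox2 in shTrim28 replicate 1, Cd248 in the library labelled shWtx replicate 2 and Fap in shGFP. In shTrim28 relative to shGFP 6 of 18 tested rose and 0 fell, beside 4.27% and 2.26% of all genes. Among those that rose were Lgals1 (1.33), Pdgfra (1.81), S100a4 (1.25) and S100a6 (1.12). The log2 fold change was above 0 for 16 of the 18 and below 0 for 2. Csrp2 was lower without passing, at 65.3 and 52.2 CPM in shTrim28, against 118 CPM in shGFP. In the libraries labelled shWtx relative to shGFP 0 of 18 rose and 2 fell, Gas1 (−2.32) and Csrp2 (−1.26), beside 10.9% and 4.94% of all genes. The list median was −0.07 beside −0.90 for the 10 genes, and the summed level lay on either side of shGFP. In shTrim28 relative to the libraries labelled shWtx 10 of 18 rose and 0 fell, beside 5.45% and 9.83% of all genes. Those that rose were led by Gas1 (3.45), S100a4 (1.73), Lgals1 (1.30) and Thy1 (1.86).

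Set against these markers, the 10 genes together had 288 and 267 CPM per 1000 CPM of markers in shTrim28, 329 and 297 in the libraries labelled shWtx and 334 in shGFP. This ratio was formed after the values had been seen. Lgals1, S100a6 and Vim made up most of the marker sum in every library, at 988.5, 886.5 and 884.7 CPM in shGFP. In shTrim28 replicate 2 they stood at 2713, 2187 and 1988 CPM, so the ratio rests largely on them. Lox had 10.5 and 7.40 CPM per 1000 in shTrim28, 7.19 and 7.70 in the libraries labelled shWtx and 3.23 in shGFP. Bgn had 42.0 and 33.4 in shTrim28, 32.1 and 32.2 in the libraries labelled shWtx and 36.4 in shGFP. On this scale Lox was lowest in shGFP, and for Bgn the shTrim28 libraries lay on either side of shGFP. Mgp had 5.26 and 4.71 in shTrim28, 3.81 and 1.40 in the libraries labelled shWtx and 15.7 in shGFP. Tgfbi had 1.91 and 2.69 in shTrim28, 2.11 and 0.70 in the libraries labelled shWtx and 8.76 in shGFP, so that both genes were highest in shGFP. Dcn had 25.3 and 30.4 in shTrim28, 17.3 and 14.0 in the libraries labelled shWtx and 36.4 in shGFP. Timp3, like Lox, was lowest in shGFP, with 36.8 and 30.5 in shTrim28, 32.6 and 28 in the libraries labelled shWtx and 24 in shGFP. Fn1 had 73.6 and 72.4 in shTrim28, 153 and 133 in the libraries labelled shWtx and 92.2 in shGFP. Sparc had 86.5 and 76.1 in shTrim28, 77.8 and 78.4 in the libraries labelled shWtx and 99.5 in shGFP. Mmp3 had 2.39 and 5.75 in shTrim28, 2.96 and 1.40 in the libraries labelled shWtx and 11.1 in shGFP. Loxl1 had 3.82 and 4.10 in shTrim28, 0 in both libraries labelled shWtx and 6.45 in shGFP. Fn1 was thus highest in the libraries labelled shWtx, and Sparc, Mmp3, Loxl1 and Dcn were highest in shGFP.

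Markers of parietal endoderm and of endothelium and blood had lower sums than the fibroblast and feeder markers. Parietal endoderm, an early tissue rich in Sparc and laminins, had 13 markers with a sum of 232 and 175 CPM in shTrim28, 183 and 245 CPM in the libraries labelled shWtx and 149 CPM in shGFP. None of its 5 tested genes passed in any of the 3 edgeR comparisons, and Dab2, named after its values were seen, was the most abundant, at 102 and 88.7 CPM in shTrim28, 49.8 and 85.4 CPM in the libraries labelled shWtx and 84.2 CPM in shGFP. The 9 endothelial and blood markers summed to 163 and 147 CPM in shTrim28, 138 and 124 CPM in the libraries labelled shWtx and 98.5 CPM in shGFP, most of it from Cd34. Cd34 stood at 116 and 125 CPM in shTrim28, 58.1 and 60.6 CPM in the libraries labelled shWtx and 84.2 CPM in shGFP. It was 1 of 2 tested genes of its list and rose in shTrim28 relative to the libraries labelled shWtx (1.04, edgeR adjusted p = 0.0118). Of the pluripotency markers, 8 of 10 fell in shTrim28 and 5 of 10 in the libraries labelled shWtx, both relative to shGFP. Pou5f1 (Oct4) stood at 298 and 212 CPM in shTrim28, 523 and 507 CPM in the libraries labelled shWtx and 856 CPM in shGFP.

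Over the 5 libraries, the mean standardised level of the 10 genes was 0.66 and 0.98 SD in shTrim28, −0.76 and −0.82 SD in the libraries labelled shWtx and −0.06 SD in shGFP. Of 6915 other named genes with a mean of at least 20 CPM, those closest to this profile were Apc, Cebpd, Ykt6, Ccne2 and Vat1, with Pearson correlations over the 5 libraries from 0.996 to 0.9988. Cebpd, a transcription factor, stood at 43.5 and 57.8 CPM in shTrim28, 15.2 and 13.8 CPM in the libraries labelled shWtx and 28.7 CPM in shGFP. Vat1 stood at 178 and 199 CPM in shTrim28, 131 and 129 CPM in the libraries labelled shWtx and 150 CPM in shGFP. These are the closest of many genes over few libraries and describe likeness only.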

How the data were processed

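Single-molecule RNA sequencing on the Helicos platform was used, per the labels' protocols. The authors deposited 1 table of estimated counts per gene without scaling between libraries, from reads aligned to RefSeq per the series' design text, with mm9 as the build, per the submitters' processing notes. Aligner, counting program and strand use are not stated, so overlapping, antisense or near-identical genes are uncertain. A deposited table of repeats was not used here. A single read was worth 1.02 to 1.06 estimated counts. Of the 28642 genes, 19486 carried a symbol and 9156 a UCSC identifier only, and 19171 were matched to a transcript length.

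Estimated counts were rounded. Genes were kept by filterByExpr with the 3 groups (10878 kept), scaled by TMM and tested by the two-sided quasi-likelihood test of edgeR 4.0.16 (R 4.3.3) on all 5 libraries without covariates, leaving 2 residual degrees of freedom. The single shGFP library was assumed to vary like the hairpin pairs. The biological coefficient of variation was 0.168. P-values were adjusted by Benjamini-Hochberg over all genes tested, and passed under 0.05. Adjusted p-values come from this fit unless DESeq2 (1.42.0) or limma (3.58.1) is named. SE is the log2 fold change divided by the root of F and is approximate, and 95% intervals of fold changes are 1.96 SE on either side. CPM are per 1000000 of the effective library size. Exact 95% Poisson intervals and the floor of 3 counts cover counting error only. A bound on a fold sets the lower of the pooled and the mean CPM against 3 counts over the group at 0.

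The 10 genes and all 13 lists were chosen with earlier results of these data known. Beside the 10 genes, the text names from each list the called genes with the lowest p (up to 4 a comparison) and all genes of counts up to 5, except 1 gene that is not reported here. Log2 fold changes are of the group named first over the other. Alternatives were DESeq2 size factors, gene totals, the DESeq2 Wald test, limma-voom with quantile normalization, no filter and only the groups compared. Others left out each hairpin library except shGFP in turn, or subtracted the chemoreceptor level by transcript length.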

Additional observations from a re-analysis of the deposited data

How the results depend on the processing

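No paired analysis was possible because the hairpin numbers are not shared between groups and shGFP is a single library. Of 105, 107 and 105 log2 fold changes of the 10 genes under the alternatives (shTrim28 against shGFP, the libraries labelled shWtx against shGFP, and shTrim28 against the libraries labelled shWtx), 92, 93 and 84 kept their direction and their side of the threshold. The 4 that changed sign were those of Mmp3 in shTrim28 against shGFP, which was close to 0: 0.001 with gene totals, 0.13 without a filter, 0.29 without shTrim28 replicate 1 (−1.24 without replicate 2) and 0.084 with the chemoreceptor level subtracted. The genes called out of the 10, in the same order of comparisons, were 1, 0 and 4 with the DESeq2 Wald test (of 5, 8 and 6 with an adjusted p), and 5 with limma-voom in the first. With 1 hairpin library left out they ranged from 0 to 3, from 0 to 5 and from 0 to 8. Genes called over the whole table (710, 1721 and 1662) were 278, 548 and 400 with the Wald test and 319, 1143 and 912 without a filter. Limma-voom called 671 in the second comparison, and the subtraction 748 in the second and 1072 in the third. With 1 hairpin library left out they ranged from 0 to 798, from 0 to 2340 and from 0 to 1100. Each 0 was without shTrim28 replicate 1, and the cause was not tested. With DESeq2 size factors the split of higher and lower calls was 390 and 336 in the first comparison, and with limma-voom 204 and 302, against 464 and 246 with TMM. With only the groups compared in the fit, Loxl1 was not tested in the second comparison and Tgfbi not in the third. Leaving out a library of a pair assumes that the lone library varies like the other groups. Of 55 levels, 52 stayed within their counting interval when scaled to the gene total, and those of Sparc, Fn1 and the sum in shTrim28 replicate 2 did not. The depth of shTrim28 replicate 1 limits Mmp3 and Tgfbi, with 5 and 4 counts.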

Other observations

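Several matrix-related genes outside the 10 were higher in shTrim28 and the libraries labelled shWtx than in shGFP, comparisons that share the 1 shGFP library. Mmp12 stood at 200 and 182 CPM in shTrim28, 415 and 424 CPM in the libraries labelled shWtx and 12.5 CPM in shGFP. Itga4, a chain of an integrin that binds fibronectin, stood at 189 and 121 CPM in shTrim28, 306 and 218 CPM in the libraries labelled shWtx and 8.95 CPM in shGFP. Acta2 stood at 98.0 and 48.8 CPM in shTrim28, 69.1 and 63.3 CPM in the libraries labelled shWtx and 1.79 CPM in shGFP. For these 3 genes the value in shGFP rests on 1 to 7 counts.

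Omd, a proteoglycan of bone, made up most reads of its list of 12 small leucine-rich proteoglycans, with 1099 and 1082 CPM in shTrim28, 1808 and 1446 CPM in the libraries labelled shWtx and 2083 CPM in shGFP. Its relatives Lum, Kera, Aspn and Chad stood under 4 CPM in every library.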
